A study of Mus musculus with 38 samples.

Results

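Peaks of open chromatin that were far more accessible in terminally exhausted tumour CD8+ T cells than in progenitor exhausted or naive cells were followed across age, cell origin and T cell subset in mice. The peaks were chosen from young OT-1 cells and young naive cells alone. A peak was a member if its mean over the 7 young OT-1 Tterm libraries was at least 50 normalized reads and at least 3 times the mean of the 2 young OT-1 Tprog libraries and of the 2 young naive libraries. This gave 475 of the 169323 peaks in the table of OT-1 and naive cells. Of these, 460 overlapped a peak of the separately made table of endogenous cells, which lists 73610 peaks, and 15 did not.

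All mice were C57BL/6J and labelled wild type. Young mice were 10 to 12 weeks old and aged mice 64 to 68 weeks old. OT-1 cells carry a transgenic T cell receptor against a peptide of ovalbumin, and the tumour was B16-OVA, a mouse melanoma that makes ovalbumin. The T cells were sorted from tumours on day 15, and endogenous CD8+ T cells are the mouse's own. Tprog (progenitor exhausted) cells were Slamf6 positive and Tim-3 negative, Tterm (terminally exhausted) cells were Slamf6 negative and Tim-3 positive, and Tadys cells, which the labels call age-associated dysfunctional, lacked both proteins. Naive CD8+ T cells came from spleen. The aged groups held 2 OT-1 Tprog, 6 OT-1 Tterm and 2 naive libraries. The endogenous groups held 4 young Tprog, 5 young Tterm, 3 aged Tprog, 3 aged Tterm and 2 aged Tadys libraries. Cells were pooled before sequencing, 5000 to 50000 per pool, and the mice that carried the OT-1 cells are not described in the sources used here. The series text gives 2 or 3 pools per group where some groups hold more libraries, so libraries may share a pool, and p-values cover only the spread between these libraries.

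In tumours and chronic infection, CD8+ T cells that keep seeing antigen pass from a self-renewing progenitor state, held by the transcription factor TCF1, to a terminal state with inhibitory receptors, granzymes and chemokines and little capacity to divide. The passage goes with a change in open chromatin, mostly at enhancers away from promoters. ATAC-seq reads that state, since its transposase cuts mainly accessible DNA. A peak's read count is a measure of how open it is in the pool of cells. In a pool, more cells with an open peak and a wider opening in each cell cannot be told apart.

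Most members were not promoters, so the listed starts of only a few carry sequence that bears on them. The 250 bases before the start are shown for the 4 list genes whose promoter window lay inside a member. They come from RefSeq (GRCm38.p6), read 5′ to 3′ on the strand of the gene, and stand for the serine protease granzyme B (Gzmb, chr14:56262335-56262584, minus strand), granzyme F (Gzmf, chr14:56211408-56211657, minus), the receptor 2B4 (Cd244a, chr1:171558943-171559192, plus) and the ectonucleotidase CD39 (Entpd1, chr19:40659520-40659769, plus). Capitals mark matches to the AP-1 motif TGANTCA or the Runx motif TGTGGTT on either strand.
Gzmb: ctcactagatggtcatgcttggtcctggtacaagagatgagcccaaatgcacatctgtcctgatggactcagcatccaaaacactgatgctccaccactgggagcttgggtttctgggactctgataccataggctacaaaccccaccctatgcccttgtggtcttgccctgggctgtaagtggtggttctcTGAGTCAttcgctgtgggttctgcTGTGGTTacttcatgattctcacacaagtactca
Gzmf: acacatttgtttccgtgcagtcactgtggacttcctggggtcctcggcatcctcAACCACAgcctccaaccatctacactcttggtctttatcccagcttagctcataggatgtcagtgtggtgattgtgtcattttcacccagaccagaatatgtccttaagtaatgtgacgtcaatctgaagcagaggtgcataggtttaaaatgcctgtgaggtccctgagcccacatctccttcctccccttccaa
Cd244a: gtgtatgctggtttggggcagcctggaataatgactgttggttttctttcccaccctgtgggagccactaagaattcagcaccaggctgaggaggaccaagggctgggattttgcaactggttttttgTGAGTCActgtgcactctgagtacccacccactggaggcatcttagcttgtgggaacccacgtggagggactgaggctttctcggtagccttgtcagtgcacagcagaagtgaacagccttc
Entpd1: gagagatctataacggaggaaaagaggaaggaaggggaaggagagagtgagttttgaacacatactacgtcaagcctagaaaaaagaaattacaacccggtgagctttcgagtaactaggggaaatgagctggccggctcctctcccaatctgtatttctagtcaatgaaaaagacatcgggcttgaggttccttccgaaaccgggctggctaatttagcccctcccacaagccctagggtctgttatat

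The Gzmb promoter held an AP-1 match from 58 to 52 bases before the start and a Runx match from 34 to 28 bases before it. Gzmf held a Runx match on the other strand, from 196 to 190 bases before the start, and Cd244a an AP-1 match from 122 to 116 bases before it. The Entpd1 stretch held none of the 8 motifs searched. Of 20 RefSeq promoter windows (250 bases before to 50 after a start) that overlapped a member, 7 held TGANTCA, against 5.24% of the 14965 windows at any tested peak and 7.81% of all 32851 windows. The Runx letters were in 4 of the 20, against 4.17% of windows at tested peaks. The NFAT letters TGGAAA were in 1 of the 20, against 16.5%. The E boxes CACCTG and CAGCTG were in 3 and 4, against 18.7% and 15.0%, the TCF/LEF letters ATCAAAG in 1, against 2.46%, and the Nr4a letters AAAGGTCA and T-box letters AGGTGTGA in 0, against 0.942% and 0.889%. Both strands were read. The 20 windows lay at 18 members and are not all separate promoters. Windows of Gm30262 overlapped each other and share a CACCTG match, and windows of Gm33199 also overlapped. Some windows belong to a gene other than the one its member is named for. A match is a description of the letters, and no match says only that these letters are not in the window.

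In the young cells that chose them, the median member stood at 21.6 normalized reads in naive cells, 36.1 in OT-1 Tprog and 147.7 in OT-1 Tterm. The peaks therefore also held reads in the other cells, at a lower level. The median fold of Tterm over Tprog was 3.67, from 3.00 to 33.8, and of Tterm over naive 6.42. In 464 members all 7 Tterm libraries were above all Tprog and naive libraries, and in 387 the Tprog mean was above the naive mean. These values chose the members and are a description. At the edge of the rule, members just inside had a Tterm mean of 50.1, a fold over Tprog of 3.002 or a fold over naive of 3.005, and peaks just outside had 49.96, 2.9999 and 2.994. The young Tterm library 6 was the highest of the 7 in 320 members, and in 27.9% of all tested peaks. With the 5 Tterm libraries of sequencing batches 4 and 5 alone, 369 peaks met the rule, of which 350 were members.

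**Figure D1:**
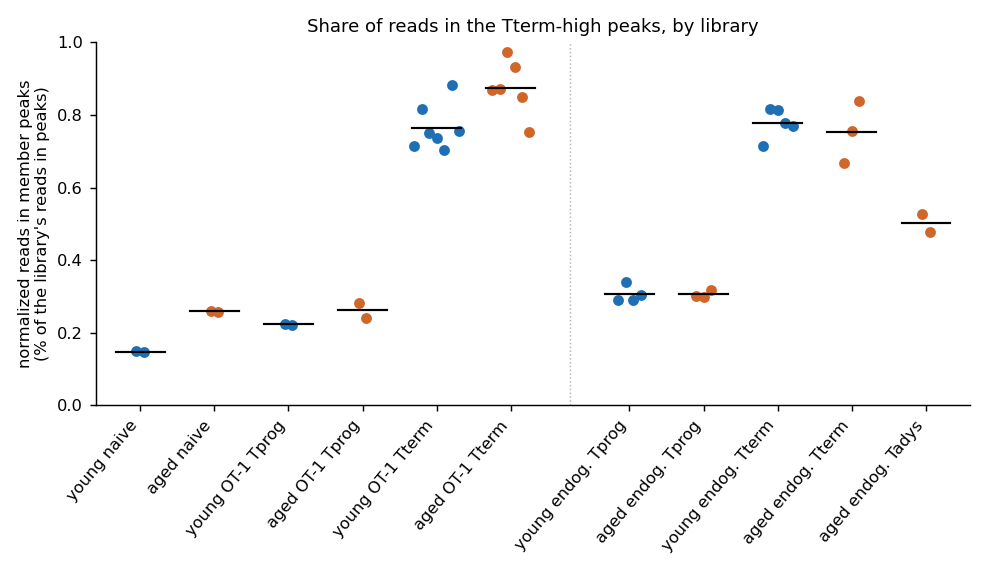
Share of each library's normalized reads in peaks that fell in the members (y axis, %), one point per library, blue for young and orange for aged, with group means as black lines; OT-1 and naive cells stand left of the dotted line and endogenous cells right of it, from a separately normalized table. Every Tterm library, of either age or origin, lies above 0.6%, Tprog and naive libraries lie below 0.4%, and the 2 Tadys libraries lie between them.

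Per library, members took 0.146 to 0.150% of normalized reads in young naive cells, 0.222 to 0.225% in young OT-1 Tprog and 0.704 to 0.884% in young OT-1 Tterm. Aged naive libraries stood at 0.258 and 0.260%, aged OT-1 Tprog at 0.239 and 0.283%, and the 6 aged OT-1 Tterm libraries ran from 0.754 to 0.973%. In endogenous cells the share ran from 0.289 to 0.340% in young Tprog, 0.297 to 0.318% in aged Tprog, 0.714 to 0.816% in young Tterm and 0.668 to 0.838% in aged Tterm. The Tadys libraries, at 0.477 and 0.527%, lay between the Tprog and the Tterm libraries with no overlap.

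By position, most members lay inside or between genes, given here as counts with no test. Within 1000 bp of a listed start were 16 members, or 3.37%, against 13.1% of tested peaks and 26.7% of peaks with a young OT-1 Tterm mean of 50 or more. Inside genes lay 287 members, or 60.4%, against 49.2% of tested peaks, and between genes 172, or 36.2%, against 37.6%. The median distance to a start was 32469 bp in members and 22617 bp in tested peaks. With each peak given to its nearest protein-coding gene within 100000 bp, the members fell to 361 genes, 300 of which had 1 member and 17 of which had 3 or more. A total of 30 members had no gene within that distance. Counted as runs with gaps of at most 50000 bp, 151 members lay in 62 runs and 324 had no other member that near. Of the runs, 18 held 3 or more members. How often other peaks lie in such runs was not tested. Gene names given from distance alone do not show which gene a peak acts on.

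**Figure D2:**
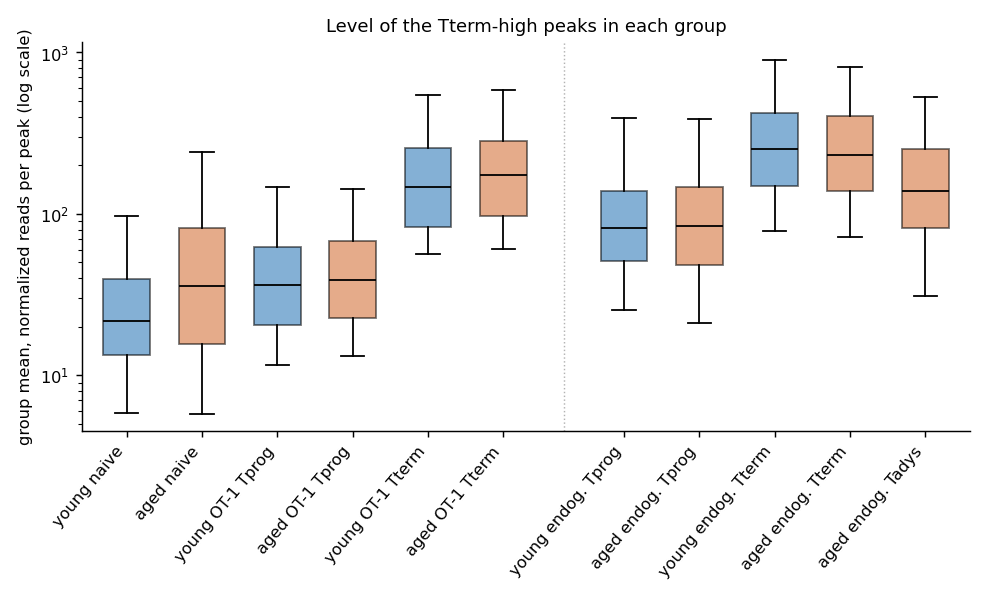
Level of the members in each of the 11 groups (y axis, group mean in normalized reads per peak, log scale); boxes give the quartiles over members with the median as a line, whiskers the 5th and 95th percentiles, blue for young and orange for aged. Tterm boxes stand highest on both sides of the dotted line, which parts 2 separately normalized tables, and the Tadys box stands between aged endogenous Tprog and Tterm.

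Aged OT-1 cells, which the rule did not use, showed the same difference at most members. The median member stood at 39.2 normalized reads in aged OT-1 Tprog and 173.9 in aged OT-1 Tterm. By limma with Benjamini-Hochberg adjustment over all 84091 tested peaks, 436 of 475 members were called higher in Tterm at an adjusted p under 0.05, against 11.3% of all tested peaks. The median log2 difference was 2.32 in members and 0.15 over all tested peaks, and 473 members were above 0. The 6 Tterm libraries lay above both Tprog libraries in 420 members, against 10.9% of tested peaks. By level, 140 of 166 members under a young OT-1 Tterm mean of 100 were called, and 165 of 167 at 200 or more. Both aged Tprog libraries were sequenced in batch 6, with 1 of the 6 aged Tterm libraries. The main fit took in all groups of the table. Its batch 6 term and spread drew partly on the young OT-1 Tterm libraries that chose the members. Without aged Tterm library 6 that term rests on young Tterm libraries alone, and 411 members and 8561 of all tested peaks were called higher. The members' median was then 2.66. With no batch term 450 members and 8733 of all tested peaks were called higher, and the members' median was 2.255. With the aged libraries fitted alone 102 members and 352 of all tested peaks were called higher, and within batch 6 alone 15 members and 20 of all tested peaks. With the batch term, both fits rest on the same single aged Tterm library, which is assumed to vary like the other groups, so they give the same estimates: a median of 2.01, with 469 of 475 members above 0. Of 25 calls among the 28 members described below, the aged libraries alone kept 4, at Ccl3, Runx3, the nearer Ifng peak and the larger Cdk6 peak. With libraries scaled to equal totals, calls over all peaks went from 9477 higher and 2850 lower to 5710 and 6012 and the median of all peaks to -0.26, while 406 members stayed called higher with a median of 1.92.

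Against aged naive cells, 403 members were called higher in aged OT-1 Tterm, against 21.4% of all tested peaks, and 1 lower, against 26.3%, with a median log2 difference of 2.26. All naive libraries, young and aged, were sequenced in batch 3, which held no tumour library. Cell state, tissue and batch cannot be told apart in any comparison with naive cells, nor in the naive part of the rule. Both aged comparisons called 376 members higher. A further 60 were called only against Tprog, 27 only against naive cells and 12 in neither. How many of all peaks were called in both was not counted. By their aged means alone, 283 of the 475 members met the level and folds that the rule had asked of young cells. The member called lower lay 36963 bp from Cd34, which codes for a sialomucin of progenitor cells, at chr1:194998255-194999846 (mm10). It read 141 and 170 in aged naive cells, 15.1 and 49.1 in aged OT-1 Tprog, and from 33.3 to 102 in aged OT-1 Tterm with a median of 68.6. The log2 difference of -1.37 ± 0.40 (SE) had a limma adjusted p of 0.00804, and of 0.088 without the second aged naive library. It was named after its values were seen.

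Between aged OT-1 Tprog and aged naive cells the members showed no common direction. By limma 16 were called higher in Tprog, against 10.0% of tested peaks, and 70 lower, against 18.1%. Equal library totals turned this to 46 higher and 40 lower, edgeR gave 79 and 37, and DESeq2 70 and 49. Calls over all tested peaks moved the same way, from 8433 higher and 15238 lower by limma. They were 11974 and 9849 with equal totals, 13397 and 9158 by edgeR, and 13141 and 12288 by DESeq2. The 86 calls became 222 without the second Tprog library, 39 and 55 without the first and second naive library, and 13 with the aged libraries alone. Over all tested peaks the same fits called 9611 higher and 23064 lower, 5551 and 7775, 6569 and 10255, and 3778 and 3274.

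Endogenous T cells of both ages repeated the Tterm difference. These libraries form another table, none of whose libraries entered the rule. The median member stood at 81.4 normalized reads in young endogenous Tprog and 251.1 in young endogenous Tterm. By limma 441 of 460 members were called higher in young Tterm, against 14.3% of all 71756 tested peaks, and all 460 fitted differences were above 0 with a median log2 of 1.55. Over all peaks the median was -0.01. In aged endogenous cells the medians were 83.6 in Tprog and 231.4 in Tterm, and 391 members were called higher, against 6.75% of tested peaks. Again all 460 differences were above 0, with a median of 1.44. Equal library totals left 427 and 385 members called, and turned 10261 higher and 8115 lower calls over all peaks in young cells to 6018 and 11244. A set of 360 members was called higher in aged OT-1 Tterm and in endogenous Tterm of both ages. No such joint count was made over all peaks.

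**Figure D3:**
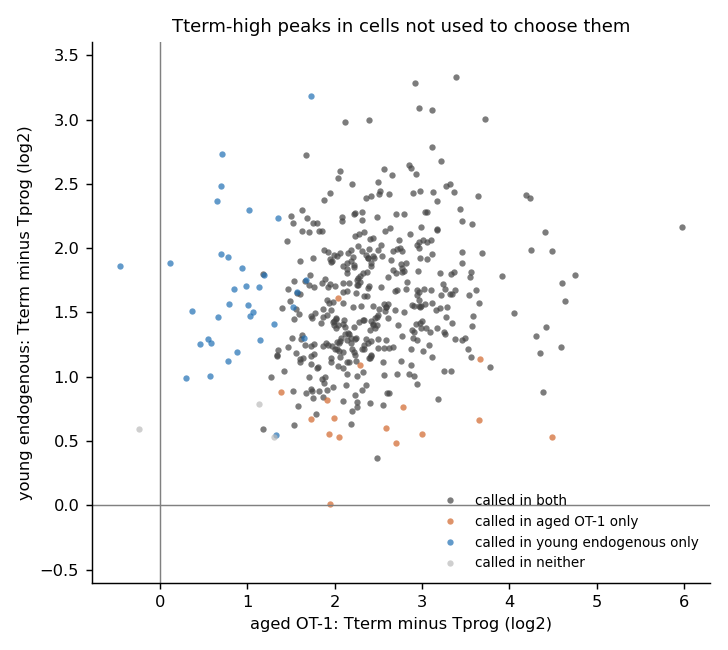
Difference between Tterm and Tprog for the 460 members with a peak in both tables, in aged OT-1 cells (x axis, log2) and in young endogenous cells (y axis, log2), one point per member, coloured by limma calls at an adjusted p under 0.05. Of the points, 406 were called in both, 16 in aged OT-1 cells only, 35 in young endogenous cells only and 3 in neither; all lie above 0 on the y axis.

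Members that differed more in young endogenous cells also tended to differ more in aged endogenous cells. Over the 460 members, the fitted log2 differences of young and aged endogenous cells had Pearson r = 0.67 and Spearman rho = 0.68. Aged OT-1 and young endogenous differences had r = 0.16 and rho = 0.19. These are descriptions across peaks, which are not independent replicates. The endogenous comparisons share a table, a normalization and batch labels, but no library.

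Tadys cells sat between the other aged endogenous subsets at most members. Their mean lay between the Tprog and Tterm means in 382 of 460 members, below both in 59 and above both in 19. This share was not counted over all peaks, and the rule chose members for a wide Tterm to Tprog difference in young OT-1 cells. The median member stood at 137.7 normalized reads in Tadys. By limma 145 members were called lower in Tadys than in Tterm, against 4.23% of tested peaks, with a median log2 difference of -0.75 and 443 below 0. In the other direction, 139 were called higher in Tadys than in Tprog, against 2.61%, with a median of 0.69 and 402 above 0. Only 23 members were called in both, 122 were called only lower than Tterm, 116 only higher than Tprog and 199 in neither. Such joint counts were not made over all peaks. The 2 comparisons share the Tadys libraries. With the compared groups fitted alone the member counts were 53 and 25, against 447 and 139 of all tested peaks. Without the first Tadys library the member counts were 61 and 53, against 1402 and 399 of all tested peaks. Without the third Tterm library 56 members were lower than Tterm, against 1149 of all tested peaks. Without the second Tprog library 92 members were higher than Tprog, against 896 of all tested peaks. Equal library totals left 114 members lower than Tterm, while calls over all peaks went from 1481 higher and 3037 lower to 1916 and 2166. Promoter peaks of marker genes of other cell types were also read in these subsets. Those of 2 of 6 NK cell marker genes summed to 966 to 1000 normalized reads in Tadys, 1219 to 1610 in aged Tterm and 1314 to 1426 in aged Tprog. Those of 5 of 12 myeloid genes summed to 1522 to 1591, 1682 to 2000 and 1671 to 1749, and that of 1 of 7 melanocyte genes read 583 to 600, 645 to 794 and 714 to 825. B cell sums, from 2 of 8 genes, were 273 to 313, 326 to 408 and 311 to 377, the last overlapping Tadys. Sums of 3 of 7 CD4 and regulatory T cell genes overlapped in all 3. T cell sums, from 3 of 6 genes, also overlapped, at 2467 to 3116, 2778 to 3134 and 2615 to 3078. One NK cell marker is Fcer1g, which has a member 547 bp from its start. Their part in the result was not tested.

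With age, endogenous Tterm cells showed 0 called members by limma and by edgeR, and 1 lower by DESeq2. At an unadjusted p under 0.05 by limma there were 44 of 460, against 5122 of all 71756 tested peaks. DESeq2 called 203 of all tested peaks higher and 60 lower. The median log2 difference, aged minus young, was -0.10, and 0.00836% of all tested peaks were called. A test of whether the Tterm to Tprog difference itself changed with age called 0 members by limma and edgeR and 1 lower by DESeq2, with 41 at an unadjusted p under 0.05 and 0% of all peaks called by limma. Over all tested peaks 5676 had such an unadjusted p, and DESeq2 called 5 higher and 15 lower. In endogenous Tprog 4 members were called higher in aged cells, against 0.0822% of tested peaks: 2 inside Cdk6, a kinase that drives cells into division, 1 inside Ppp2r2c, a regulatory subunit of protein phosphatase 2A, and 1 that lay 34287 bp from B4galt5, a galactosyltransferase. The count went to 0 without the first aged Tprog library or without the fourth young one, to 1 without the second young one, to 2 by edgeR and to 7 by DESeq2. Over all tested peaks edgeR called 58 higher and 31 lower, and DESeq2 349 and 334.

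These 4 members can be read library by library. The B4galt5 member (chr2:167383465-167384312) read 66.2, 46.0, 67.3 and 35.1 in young endogenous Tprog and 265, 129 and 130 in aged Tprog, with no overlap. Its log2 difference was 1.65 ± 0.31 (SE, limma adjusted p = 0.0248). It read 269 and 316 in Tadys and 220 to 257 in aged Tterm, so that 2 of the 3 aged Tprog libraries lay below all of these and 1 among them. The Ppp2r2c member (chr5:36954465-36956055) read 76.5 to 127 in the 4 young Tprog libraries and 223, 229 and 203 in the aged ones, a log2 difference of 1.14 ± 0.21 (limma adjusted p = 0.0200). The larger Cdk6 member (chr5:3477560-3479849) read 175 to 302 in young Tprog and 411, 381 and 367 in aged Tprog (0.72 ± 0.16, limma adjusted p = 0.0494). The other (chr5:3488133-3489429) read 32.5 to 94.5 and 135 to 145 (1.26 ± 0.27, limma adjusted p = 0.0447). Each of these calls was lost with at least 1 library left out.

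Aged naive cells stood above young naive cells at many members. The aged naive mean exceeded the young one in 340 of 475 members and was at least 2 times as high in 170, and the median member stood at 35.6 normalized reads in aged and 21.6 in young naive cells. In 17 members the aged naive mean exceeded the aged OT-1 Tterm mean. Since young naive values were part of the rule, which asked for low values there, this is a description with no test. Such counts were not made over all tested peaks. Library totals were also higher, at 12.4 and 11.8 normalized megareads in aged and 10.2 and 10.3 in young naive cells. As a share of these totals, members took 0.258 to 0.260% in aged and 0.146 to 0.150% in young naive libraries. The median of all peaks was lower, at 7.56 and 8.50 in aged and 10.3 and 10.4 in young naive libraries. The part of the totals was not tested. Promoter peaks of 3 of 6 NK cell marker genes summed to 1034 and 1132 normalized reads in aged naive libraries and 577 and 630 in young ones. Those of 6 of 12 myeloid marker genes summed to 1481 to 1547 and 933 to 970, and those of 3 of 6 T cell genes to 1686 to 1712 and 1510 to 1565. The sums were also higher for B cell genes (153 to 165 and 106 to 114), CD4 and regulatory T cell genes (986 to 1037 and 864 to 903) and the 1 melanocyte gene (435 to 451 and 251 to 304), so that no list overlapped between the ages. Their part in the difference was not tested.

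**Figure D4:**
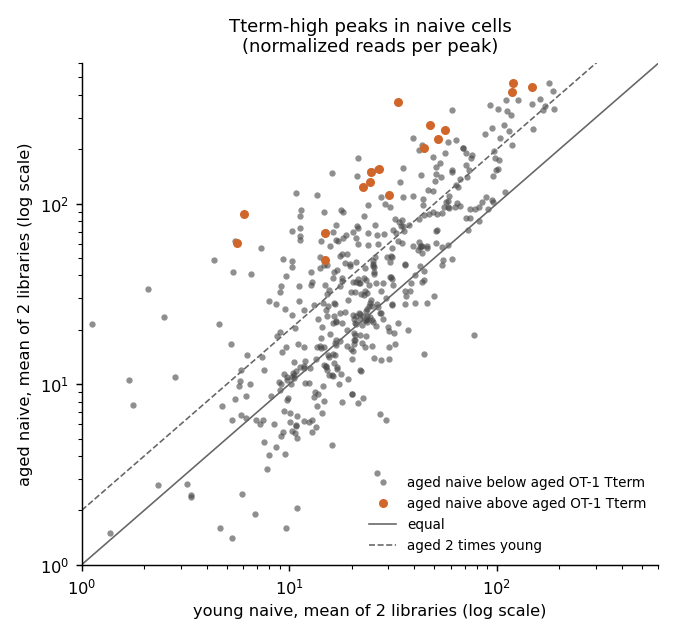
Mean of the 2 young naive libraries (x axis) and of the 2 aged naive libraries (y axis) at the 475 members, in normalized reads per peak on log scales; the full line marks equal levels and the dashed line an aged level 2 times the young one. More points lie above the full line than below it, and the 17 orange points are members whose aged naive mean exceeded the aged OT-1 Tterm mean.

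Among cytotoxic molecules, the Gzmb promoter (chr14:56261669-56263049, mm10), whose sequence is printed above, was the sixth highest member. It read 90.0 and 96.2 in young naive cells, 236 and 232 in young OT-1 Tprog and 657 to 1018 in young OT-1 Tterm with a median of 682. In aged cells it read 367 and 336 in naive, 121 and 316 in OT-1 Tprog and 681 to 963 in OT-1 Tterm with a median of 704. Every aged Tterm library was above every aged Tprog and naive library, with log2 differences of 2.05 ± 0.31 (SE, limma adjusted p = 7.84e-05) and 1.10 ± 0.26 (limma adjusted p = 0.00147). In endogenous cells it read 483 to 508 in young Tprog, 1045 to 1333 in young Tterm, 538, 489 and 577 in aged Tprog, and 1006, 1050 and 1021 in aged Tterm. Tadys libraries, at 818 and 700, lay between the aged groups. It lay in a run of 3 members over 59426 bp with a pair at Gzmf, a granzyme of the same cluster. The one inside Gzmf (chr14:56203623-56206097) rose in aged OT-1 Tterm (1.73 ± 0.29, limma adjusted p = 0.000271), while young endogenous Tprog, at 146 to 257, and Tterm, at 208 to 401, overlapped.

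Interferon gamma (Ifng), the main cytokine of these cells, had 3 members, all between genes. The member 36263 bp from the gene (chr10:118482157-118482942) had the largest difference of the 3 in endogenous cells. It read 9.45, 7.36, 19.0 and 12.8 in young endogenous Tprog and 62.1 to 190 in the 5 young Tterm libraries, then 0, 2.02 and 11.6 in aged Tprog and 68.0, 109 and 131 in aged Tterm. The groups did not overlap at either age, and the log2 differences were 3.07 ± 0.52 (limma adjusted p = 5.41e-05) and 4.89 ± 0.63 (limma adjusted p = 5.15e-06). The second rests on values near 0. Tadys read 36.1 and 15.2, above all aged Tprog and below all aged Tterm libraries. In aged OT-1 cells it read 38.4 and 10.3 in Tprog and 121 to 243 in Tterm. The nearer member (1489 bp from Ifng) read 142, 185 and 175 in aged endogenous Tterm and 174 and 147 in Tadys, which overlapped, against 84.5, 78.1 and 82.2 in aged Tprog. Fas ligand (Fasl), which triggers death of target cells, had a member 35343 bp away (chr1:161744311-161745348). It rose in aged OT-1 Tterm (1.87 ± 0.36, limma adjusted p = 0.00102), while aged endogenous Tterm read 325, 288 and 321 and aged Tprog 334, 330 and 272, which overlapped. Whether the origins differ was not tested. The effector list of 18 genes held 10 members at 7 genes. All 10 were called higher in aged OT-1 Tterm, 9 in young and 8 in aged endogenous Tterm. Over all its 202 tested peaks in the OT-1 table, 78 were called higher and 1 lower.

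Chemokines that draw other leukocytes held 10 members at 5 of the 10 list genes, 9 of them in runs on chromosome 11 and 1 at Csf1. A run of 5 members spanned 38506 bp at Ccl3 and Ccl4, and a run of 4 spanned 43315 bp at Ccl5 and Ccl9. The highest, 17556 bp from Ccl3 (chr11:83628406-83630287), read 91.9 and 103 in young naive cells, 230 and 263 in young OT-1 Tprog and 851 to 1923 in young OT-1 Tterm with a median of 938. The 1923 came from library 6, and the next highest read 1047. In aged OT-1 cells it read 142 and 228 in Tprog and 990 to 1581 in Tterm, a log2 difference of 2.94 ± 0.32 (limma adjusted p = 1.86e-06). Aged endogenous cells read 227, 386 and 442 in Tprog, 1434, 1419 and 1434 in Tterm and 1052 and 846 in Tadys. Tadys was called higher than Tprog (1.48 ± 0.20, limma adjusted p = 0.000166), also with each library left out. Against Tterm its difference was -0.60 ± 0.20 (limma adjusted p = 0.0682). Not all members of the cluster behaved alike. The Ccl5 member (chr11:83527132-83528526) rose in aged OT-1 Tterm (2.70 ± 0.47, limma adjusted p = 0.000317) but read 49.1 to 128 in young endogenous Tprog and 105 to 175 in young endogenous Tterm, which overlapped. Whether the origins differ was not tested. All 10 chemokine members were called higher in aged OT-1 Tterm, and 8 of 9 in endogenous Tterm of each age. In Tadys 5 of 9 were called higher than in Tprog, as were 11 of all 72 tested peaks of the list. Of these 5, the calls at the Ccl4 and Ccl9 members with the highest levels were lost without the first Tadys library (limma adjusted p = 0.211 and 0.253), without the second or the third Tprog library, with the replicate block (0.0716 and 0.0576) and with the compared groups alone.

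**Figure D5:**
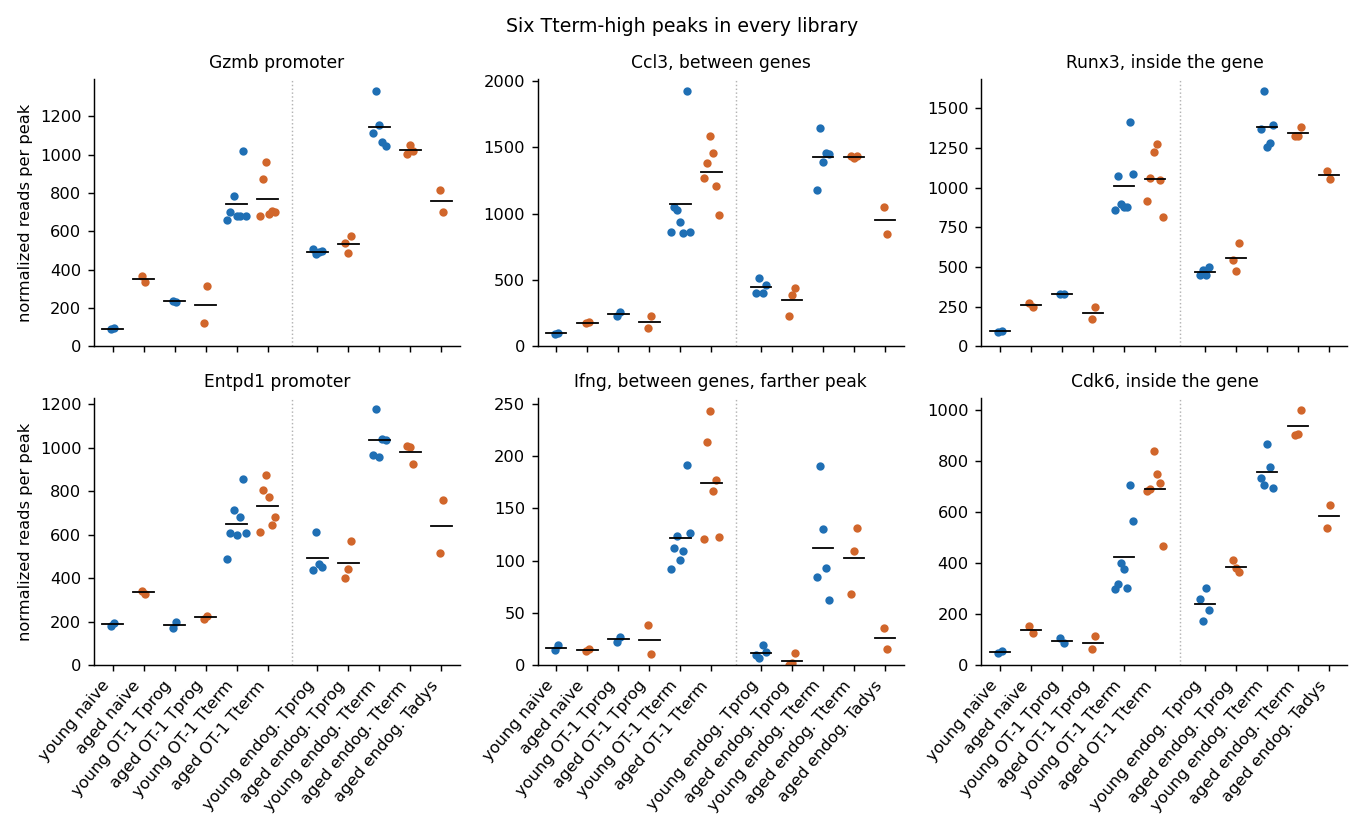
Normalized reads per peak (y axis, linear from 0) at 6 members in every library, one point per library, blue for young and orange for aged, with group means as black lines and the separately normalized endogenous table right of the dotted line. Tterm libraries stand above the Tprog and naive libraries of their table in each panel, young OT-1 Tterm library 6 is highest of its group in all 6 panels, and Tadys lies near Tprog at the farther Ifng peak and nearer to Tterm at Runx3.

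Transcription factors of the effector and exhausted state had members inside or near their genes. Runx3, which keeps CD8 T cells cytotoxic and tissue resident, had the third highest member (chr4:135168055-135169873, inside the gene). It read 93.2 and 96.2 in young naive, 332 and 329 in young OT-1 Tprog and 856 to 1414 in young OT-1 Tterm with a median of 898. Aged OT-1 cells read 170 and 246 in Tprog and 812 to 1272 in Tterm, with no overlap (2.44 ± 0.27, limma adjusted p = 2.25e-06). In aged endogenous cells it read 542, 477 and 653 in Tprog, 1327, 1322 and 1378 in Tterm and 1106 and 1051 in Tadys, which was called higher than Tprog (0.96 ± 0.15, limma adjusted p = 0.000693) and had an adjusted p of 0.20 against Tterm by limma. Prdm1, which codes for Blimp-1, a repressor of the memory programme, had a member inside the gene (chr10:44449789-44451107). It read 71.0 and 123 in aged OT-1 Tprog and 253 to 469 in aged OT-1 Tterm (2.02 ± 0.30, limma adjusted p = 7.65e-05), and 190 to 259 against 556 to 671 in young endogenous cells.

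Zeb2, a repressor found in terminal effector cells, had a member inside the gene (chr2:45018593-45020162). It read 18.6 and 24.1 in young naive cells, and 202 and 157 in aged naive cells against 112 to 227 in aged OT-1 Tterm. The last 2 groups overlapped. Low young naive values were asked for by the rule, so the difference between naive cells of the 2 ages is a description with no test. Aged endogenous Tterm read 335, 251 and 340 and Tadys 162 and 122, a difference of -1.12 ± 0.24 (limma adjusted p = 0.00579) that held with each library left out and had an adjusted p of 0.0561 with the compared groups alone. Tadys overlapped aged Tprog, at 161, 226 and 200. Id2, an inhibitor of E proteins, had a member 2209 bp away (chr12:25098301-25100245) with 496 and 395 in aged naive cells and 281 to 569 in aged OT-1 Tterm, which overlapped. Its rise over aged OT-1 Tprog (1.27 ± 0.38, limma adjusted p = 0.0248) was lost without the first Tprog library (adjusted p = 0.61). In young endogenous cells it read 436 to 657 in Tprog and 778 to 1132 in Tterm.

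Among surface proteins of the terminal state, Entpd1 had 5 members in a run of 74924 bp. All 5 were called higher in aged OT-1 Tterm, with log2 differences from 1.35 to 3.55, and in endogenous Tterm of both ages. Its promoter member (chr19:40659322-40662504) read 181 and 196 in young naive, 172 and 198 in young OT-1 Tprog and 486 to 857 in young OT-1 Tterm with a median of 609. In aged OT-1 cells it read 212 and 228 in Tprog and 611 to 873 in Tterm (1.81 ± 0.25, limma adjusted p = 2.97e-05). Aged endogenous cells read 400, 441 and 572 in Tprog, 1008, 1001 and 925 in Tterm, and 517 and 761 in Tadys. The Cd244a promoter (chr1:171558567-171561490), at a receptor that can inhibit or activate, read 163 and 95.6 in aged OT-1 Tprog and 333 to 470 in aged OT-1 Tterm (1.62 ± 0.27, limma adjusted p = 0.000183). In aged endogenous cells it read 215, 201 and 197 in Tprog, 385 and 305 in Tadys and 574, 583 and 660 in Tterm, an order with no overlap. The member 547 bp from the start of Fcer1g, a signalling adaptor of Fc and NK receptors, had the same order, at 146, 110 and 130, then 287 and 194, then 369, 475 and 485. The 20 genes of the terminally exhausted list held 8 members, at Cd244a, Entpd1, Id2 and Prdm1. All 8 were called higher in Tterm in aged OT-1 and in both endogenous comparisons, and 4 were called lower in Tadys than in Tterm. Of these 4, the calls at the Entpd1 promoter, Cd244a and Prdm1 were lost without the third aged Tterm library (limma adjusted p = 0.0689, 0.0532 and 0.101) and with the compared groups alone. Over all 278 tested peaks of the list in the OT-1 table, 92 were called higher and 8 lower in aged OT-1 Tterm.

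Receptors for chemokines and adhesion had few members. The chemokine receptor gene Cx3cr1 had a member inside the gene that was called higher in aged OT-1 Tterm (2.49 ± 0.48, limma adjusted p = 0.00102) and in young endogenous Tterm. In aged endogenous cells its difference was 0.80, with a limma adjusted p of 0.20. The 13 adhesion genes had 3 members, at the integrin subunit Itgav, the hyaluronan receptor Cd44 and the adhesion receptor Adgrg1. All 3 were called in aged OT-1 Tterm, with Adgrg1 at a mean of 67.2 in aged OT-1 Tprog and 538 in Tterm, and 2 of 3 in endogenous Tterm of each age. The 14 NK receptor genes had 3 members, at Fcer1g and Klrg1, all called in aged OT-1 Tterm. The tissue residency list had members at Rgs2 and Runx3, of which Runx3 was called in aged OT-1 Tterm and Rgs2 had a limma adjusted p of 0.22.

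Several genes best known from exhausted cells had no member. The peak that came nearest the rule was chosen per gene after its values were seen. At the Havcr2 promoter, the gene of Tim-3, young means were 111 in naive, 402 in Tprog and 928 in Tterm, a fold over Tprog of 2.31. The nearest Pdcd1 peak, at the gene of PD-1, read 203, 174 and 319, the nearest Lag3 peak 187, 523 and 716, and the nearest Tox peak 46.3, 53.1 and 75.3. The Pdcd1 and Tox peaks were under 3-fold over both naive cells and Tprog, the Havcr2 and Lag3 peaks over Tprog alone. Prf1, which codes for perforin, came close, with 26.8 in Tprog and 75.3 in Tterm, a fold of 2.81. Lists of 11 AP-1 genes, 12 NFAT and calcium genes, 19 genes of proximal T cell receptor signalling, 14 interleukin receptors and 19 progenitor genes held 0 members. At progenitor genes, 70 of 418 tested peaks were called lower and 21 higher in aged OT-1 Tterm.

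The largest difference of the members named here in aged OT-1 cells was at a gene outside these lists. A member inside Upf1, a helicase of nonsense-mediated decay (chr8:70341724-70342614), read 2.57 and 2.41 in young naive, 14.5 and 25.9 in young OT-1 Tprog and 439 to 829.4 in young OT-1 Tterm with a median of 534. In aged OT-1 cells it read 0 and 159 in Tprog and 613 to 825 in Tterm. The fitted log2 difference of 5.98 ± 1.053 (limma adjusted p = 0.000389) rests on the Tprog library at 0. Endogenous cells read 132 to 200 in young Tprog and 463 to 960 in young Tterm (2.16 ± 0.19, limma adjusted p = 3.31e-09). Tadys, at 351 and 318, was called higher than aged Tprog, at 76.9, 81.5 and 138 (1.80 ± 0.26, limma adjusted p = 0.000391), also with each library left out. Filip1, which codes for a filamin-binding protein, had the most members, 6 in a run of 88718 bp, with aged OT-1 differences from 2.099 to 4.408, all 6 called. Coro2a, a coronin, had 4 members in 6822 bp, all called in aged OT-1 cells and 2 of 3 in aged endogenous cells. The highest member of all lay at 2900026A02Rik, with a young OT-1 Tterm mean of 1090, and that gene's 3 members were called in aged OT-1 Tterm and in endogenous Tterm of both ages.

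Some members were low in Tadys and high in aged Tterm. A member inside Acadl, a dehydrogenase of fatty acid oxidation (chr1:66841447-66842805), read 539, 640 and 649 in aged endogenous Tterm, 287 and 269 in Tadys and 227, 324 and 201 in aged Tprog. Tadys overlapped Tprog and was lower than Tterm (-1.13 ± 0.23, limma adjusted p = 0.00439), also with each library left out. Inside Me1, the cytosolic malic enzyme (chr9:86628856-86629473), Tterm read 198, 168 and 277, Tadys 26.0 and 77.5 and Tprog 38.4, 45.1 and 81.4. The difference between Tadys and Tterm of -2.19 ± 0.39 (limma adjusted p = 0.00186) was lost without the first Tadys library (adjusted p = 0.064). Inside Pde4d, a phosphodiesterase that breaks down cyclic AMP (chr13:108861559-108862645), Tadys read 16.0 and 45.6 and Tterm 127, 129 and 224 (-2.46 ± 0.42, limma adjusted p = 0.00121), and this call held with each library left out. The cell cycle list had 3 members, all inside Cdk6. The larger named above was not low in Tadys. Its Tadys mean of 583 lay between the aged endogenous Tprog mean of 386 and the Tterm libraries, at 902, 907 and 1001. The call against Tterm was lost without the first Tadys library (limma adjusted p = 0.17). In aged OT-1 cells it read 62.8 and 115 in Tprog and 466.4 to 842 in Tterm (3.26 ± 0.34, limma adjusted p = 1.46e-06). Of the 3 Cdk6 members, 2 were called higher in aged OT-1 Tterm and 2 in aged endogenous Tterm.

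A few members did not repeat the difference. The member inside Snx29, a sorting nexin (chr16:11658447-11659935), read 165 and 59.5 in aged OT-1 Tprog, 67.3 to 205 in aged OT-1 Tterm and 140 and 158 in aged naive cells, all of which overlapped (Tterm minus Tprog -0.24 ± 0.45, limma adjusted p = 0.73). In young endogenous cells it read 63.8 to 94.2 in Tprog and 106 to 197 in Tterm, with no overlap and a limma adjusted p of 0.079. The member inside Klhl30 (chr1:91350795-91351718) read 119 and 20.7 in aged OT-1 Tprog and 33.9 to 132 in aged OT-1 Tterm. In young endogenous cells it rose in Tterm (1.88 ± 0.48, limma adjusted p = 0.00443). The first aged OT-1 Tprog library, the library with the fewest reads of its table at 6.80 megareads in peaks, was the higher of the pair at both.

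Reads in peaks per library ran from 6.80 to 27.7 megareads in the OT-1 and naive table and from 4.64 to 87.6 megareads in the endogenous table. Promoter peaks of 3 of 6 T cell marker genes were open in every group, and the sums over 7 melanocyte and melanoma genes came from 1 gene with a promoter peak, at 192 to 459 normalized reads in OT-1 and naive cells. B cell markers, 3 of 8 genes, summed to 106 to 201 there. No marker gene with a promoter peak was at 0 in all libraries of a group. NK cell markers were higher in OT-1 Tterm, at 632 to 715 in young Tprog and 951 to 1317 in young Tterm, and at 469 to 670 and 848 to 1112 in aged cells. B cell sums were 136 to 143 and 153 to 201 in young and 123 to 147 and 135 to 177 in aged cells, and CD4 and regulatory T cell sums 1221 to 1295 and 1285 to 2090, and 648 to 1353 and 1354 to 1972. Myeloid sums were 1108 to 1130 and 1023 to 1653 in young and 820 to 1256 and 1117 to 1476 in aged cells, which overlapped. The NK list has 1 member, at Fcer1g, which T cells also use, and the myeloid list has 1, which lay 69394 bp from Cebpb. The Fcer1g member lay near the gene's start, so the NK sums may hold a peak chosen by its young naive and OT-1 levels. The part of other cells in these results was not tested.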

How the data were processed

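ATAC-seq was made on 38 samples. The submitters' processing notes name DESeq2 1.28.1, MACS2 2.1.1, the mapper Bowtie2 2.2.9, SAMtools 1.3.1 and Picard 2.8.0, with no order or role. The authors deposited signal values, normalized reads per peak (mm10), in 2 tables that were normalized separately. Whole reads were recovered from all values (tolerance 0.01). Here, limma 3.58.1 (R 4.3.3) with an intensity trend was fitted to log2(value + 1) in all groups of a table, for peaks with a mean of 10 or more, with a term for batch 6 in the OT-1 and naive table. Differences are on that scale, and p-values were adjusted (Benjamini-Hochberg) over all tested peaks, with 0.05 as threshold, in 10 comparisons. Tests on recovered reads with edgeR 4.0.16 and DESeq2 1.42.0, equal library totals, other filters, pseudocounts and member thresholds, left-out libraries and a replicate block were alternatives. Scripts were tested on simulated data.

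The members and the 20 gene lists were chosen with earlier results of these data known. Named members were those highest in young OT-1 Tterm, those of largest difference in aged OT-1 cells, the highest member of each list gene, the genes with most members, the members of smallest aged difference and those called by age or most changed in Tadys; of these, 28 are described. A peak took the name of the closest RefSeq protein-coding gene (GRCm38.p6, 21900 genes) up to 100000 bp away. Endogenous peaks were matched by an overlap of at least 1 bp. Motifs were read only in RefSeq promoter windows, since no genome was used here. Replicate numbers were not taken to pair libraries. Python 3.11.15 and matplotlib 3.10.9 drew the figures. A result on 1 further member is not reported here.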

Additional observations from a re-analysis of the deposited data

Results flagged for a closer look

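In 12 of 120 groups of 4 to 10 libraries examined for the described members and the members' median, 1 library lay far from the others by Dixon's ratio at the 95% level. Chance flags about 1 in 20 groups.

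The young OT-1 Tterm library 6, sequenced in batch 6, was that library at 7 members. It read 1018 at the Gzmb promoter, where the next highest read 784. At the Ccl3 peak it read 1923 against 1047, at the Ccl4 peak 784 against 572, and at the Ccl9 peak 380 against 256. At the Runx3 peak it read 1414.5 against 1082, at the farther Ifng peak 191 against 127, and at the Me1 peak 296 against 181. All of these are values that the choice of members used.

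Among endogenous cells, the second young Tprog library read 257 at the Gzmf peak, where the next highest read 158, and 612 at the Entpd1 promoter, against 465.5. The first young Tterm library read 508 at the Cd244a promoter, where the next lowest read 619, and the second read 197 at the Snx29 peak, against 116. The median level of the members reached 91.9 normalized reads in 1 young Tprog library and 80.1 in the next.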

How the results depend on the processing

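With the compared groups fitted alone, aged OT-1 Tterm against Tprog called 102 members (15 within batch 6), aged Tprog against naive 13, Tadys against Tterm 53, Tadys against Tprog 25 and endogenous Tprog by age 2. A 4-fold and a 2-fold rule, which left 150 and 1920 members, called 142 and 1618 for aged OT-1 Tterm against Tprog, 138 and 1511 for Tterm against naive, 22 and 357 for Tprog against naive, 141 and 1709 in young and 135 and 1379 in aged endogenous cells, 46 and 504 for Tadys against Tterm, 54 and 368 for Tadys against Tprog, and 1 and 13 for Tprog by age. A Tterm mean of 100 left 309 members, with 2 called for Tprog by age, and equal library totals left 278 members. With 1 library left out, calls ranged from 39 to 222 for aged Tprog against naive, 56 to 125 for Tadys against Tterm, 53 to 137 for Tadys against Tprog and 0 to 4 for Tprog by age. Tprog by age gave 2 calls with equal totals, 2 by edgeR and 7 by DESeq2, and DESeq2 gave 1 call each for Tterm by age and age by subset.

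Deviations of same-numbered libraries had correlations from -0.27 to 0.08 in endogenous cells and of 0.21 between aged OT-1 Tterm and Tprog. Where groups share only 2 replicate numbers, both numbers give the same value. With so few libraries, these correlations cannot show whether replicate numbers pair the libraries. With a replicate block, Tprog by age went from 4 calls to 1, and aged OT-1 Tterm against Tprog, without the batch term and added after seeing the data, had 432. Of 4723 values of the described members under alternatives, 4479 kept their direction and side of the threshold, 193 lost and 49 gained a call, and 2 reversed. For aged OT-1 Tprog minus aged naive, Upf1 stood at 2.43 without the first Tprog library and -4.89 without the second, and Pde4d at 3.26 and -2.23. The first of these Tprog libraries read 0 at both peaks. Groups of 2 libraries limit the Tadys, naive and aged OT-1 Tprog results.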

Other observations

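Members near other immune genes, picked after their values were seen, are given as values. The promoter of Fcrl6, an Fc receptor-like protein of cytotoxic lymphocytes, had means of 17.7 in young naive, 45.9 in young OT-1 Tprog and 275 in young OT-1 Tterm. In aged OT-1 cells its means were 51.1 in Tprog and 326 in Tterm, a log2 difference of 3.01 ± 0.45 (SE). A member 34562 bp from Irf8, a transcription factor of the interferon response, had means of 35.4 in aged OT-1 Tprog and 360 in aged OT-1 Tterm (3.43 ± 0.30), and differed by 2.31 ± 0.21 in young endogenous cells. A member 24724 bp from the cytokine gene Il21 differed by 2.38 in aged OT-1, 1.26 in young endogenous and 0.67 in aged endogenous cells. A smaller member 6925 bp from Il10, which codes for an inhibitory cytokine, had means of 13.2 and 60.0 in aged OT-1 Tprog and Tterm. Pik3ap1, an adaptor for PI3 kinase, had 3 members inside the gene, with differences of 3.53, 2.22 and 1.89 in aged OT-1 cells. In each of these the limma adjusted p in aged OT-1 cells was under 0.05.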
